A study of Homo sapiens with 12 samples.

Results

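The 42 genes described here encode factors that build ribosomes, most of them in the nucleolus. They were taken from a named list, matched by Ensembl identifier to tables of 58051 genes, and all 42 were found. They fall by textbook role into 7 sets. Transcription of ribosomal DNA by RNA polymerase I (Pol I) held POLR1A, POLR1B, POLR1C, RRN3, TCOF1 and UBTF. The box C/D snoRNP set held NOP56, NOP58, FBL and RRP9, and the box H/ACA snoRNP set DKC1, NHP2, NOP10 and GAR1. The small subunit processome held WDR43, WDR75, UTP15, UTP20, HEATR1, NOL6, NOL11 and NOP14, and late 40S assembly BYSL, PNO1, NOB1, TSR1 and RRP12. The 60S assembly set held BOP1, PES1, WDR12, NOP2, NOP16, RRP1B, RRS1 and PPAN, and the chaperones and regulators of the nucleolus NCL, NPM1, NOLC1, GNL3, DDX21, MYBBP1A and LYAR. Their RNA was measured by RNA-seq in HCT116, a human colon carcinoma cell line. Cells received a small interfering RNA (siRNA) with Oligofectamine that was directed against PFDN2 (siPFDN2) or PFDN5 (siPFDN5), which encode subunits of the co-chaperone prefoldin, or a control duplex (siControl). After 24 h all cells, controls included, were deprived of serum for 48 h, and they were collected either then or 90 min after serum was given back. Each of the 6 groups held 2 libraries. Nothing in the labels ties the libraries to separate cultures, so p-values measure the spread between these libraries only.

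Ribosome assembly starts when Pol I copies ribosomal DNA into a long precursor RNA. Small nucleolar RNAs in box C/D and box H/ACA particles guide methylation and pseudouridylation of that precursor, the small subunit processome folds and cuts it, and the 40S and 60S subunits then mature separately before export. Growth factors in serum are known to raise ribosome production, and the transcription factor MYC, which binds the E-box motif, is a known activator of many of these genes. Exon counts mostly report mature messenger RNA, whereas intron counts mostly report unspliced precursor RNA, so that the intron signal can move earlier than the exon signal after a stimulus.

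Promoter sequences from RefSeq (GRCh38.p14), from 250 bases before to 50 bases after a gene's start, were matched by symbol for 35 of the 42 members. No sequence was matched for BOP1, NOLC1, TCOF1, NOP58, RRS1, RRP1B and RRP12. The E-box CACGTG, which reads the same on both strands, was in a window of 16 of these 35 members (45.7%), against 12% of the 12312 tested genes with a window and 7.26% of all 35116 windows. A gene could have several windows, on average 1.26 per matched member and 1.43 per tested gene. Of the 17 E-boxes, 15 lay within 50 bases of the start. The 11 at or after the start could not lie farther away, since the window ends there. The ETS core CCGGAAG, sought on both strands, was in 11 of the 35 members (31.4%, against 19.6% of tested genes), and the palindromic NRF1 motif was in 3 (8.57%, against 2.39%). Overlap between motifs was allowed. A match describes the letters only and does not show that a factor was bound. Of the E-box carriers that passed a serum test of exon or intron counts described further on, NOP14 and RRP9 are not printed. Intron counts of NOP14 rose with siPFDN5, and those of RRP9 fell in siPFDN2. The windows below are 30 bases each, 5′ to 3′ on the gene's strand, with the E-box in capitals, and belong to carriers that rose in such a test. They lie at chr10:68956604-68956633 (DDX21, + strand), chr4:109815781-109815810 (GAR1, +), chr2:68157885-68157914 (PNO1, +), chr4:4290068-4290097 (LYAR, −), chr6:41921515-41921544 (BYSL, +), chr9:33473894-33473923 (NOL6, −) and chr3:52686026-52686055 (GNL3, +).
DDX21: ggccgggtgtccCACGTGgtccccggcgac
GAR1: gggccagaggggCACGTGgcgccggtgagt
PNO1: ggtgcagctgcgCACGTGtttcagccggca
LYAR: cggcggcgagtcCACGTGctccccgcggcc
BYSL: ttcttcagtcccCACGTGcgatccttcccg
NOL6: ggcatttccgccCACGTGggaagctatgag
GNL3: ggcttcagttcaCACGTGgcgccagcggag

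Exon counts summed to between 46158398 and 114454288 per library, and intron counts (gene-body minus exon counts) to between 12894813 and 22050302, or 14.8% to 25.9% of the gene-body total. PFDN2 stood at 6.52 and 6.66 exon CPM (counts scaled to a common library total) in siPFDN2 before serum and at 7.96 and 9.42 after it, against 11.1 and 11.1, and 20.3 and 17, in siControl. With siPFDN5, PFDN2 stood above every siControl library, at 24.2 and 22.8 CPM before serum and 24.9 and 31.6 in the libraries labelled as after it. For PFDN5 the siPFDN5 libraries before serum gave 52.2 and 55.5 CPM, against 94.1 and 84.3 in siControl. Those after serum gave 78.0 and 79.6 CPM, against 87.3 and 90.1. These lay below both siControl libraries by less than before serum. The last group is therefore called the libraries labelled siPFDN5 after serum, and each direction drawn from it rests on that label. The 7 epithelial markers stood between 75.7 and 1375 CPM in every library, and PTPRC, CD3E, ALB, PECAM1 and COL3A1 did not exceed 0.342 CPM. COL1A1, the other non-epithelial marker, stood between 4.70 and 19.4 CPM.

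One library stood apart. In siPFDN2 before serum replicate 2, a gene's deviation from the mean library followed its GC content (Spearman's rho 0.841 across 11152 genes, which are not independent), against −0.529 to 0.046 in the other libraries. The members showed the same trend. Their log2 difference between the replicates of that group had an SD of 0.672, against 0.068 to 0.190 in the other 5 groups, and followed their GC content (37.7% to 65.2%) with rho 0.870 over 42 members. NPM1 stood at 1076 and 456 CPM in the replicates of that group, and TCOF1 at 103 and 198. Because every comparison shared 1 estimate of the spread, this library widened the error of all of them, and results are given with and without it.

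**Figure D1:**
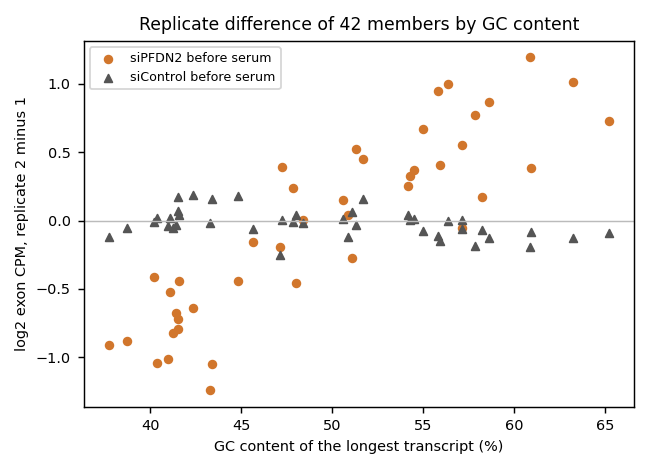
Difference of log2 exon CPM between replicate 2 and replicate 1 (vertical axis) against the GC content of the longest transcript (horizontal axis, %) for the 42 members, in siPFDN2 before serum (circles) and siControl before serum (triangles). The circles climb with GC content, with an SD of 0.672, while the triangles stay near 0.

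Levels differed widely between the members. Per kilobase of exon, averaged over the 6 groups, they ranged from 275 CPM per kb for NPM1, a histone and ribosomal protein chaperone, to 5.43 for GAR1, a core protein of the H/ACA particle. NPM1 ranked 129th of the 24889 tested genes and GAR1 7970th. NOP10, another H/ACA protein, came next to NPM1 with 124 CPM per kb, followed by NOLC1 (89.0) and NCL (65.8), which shuttle through the nucleolus. The lowest after GAR1 were UTP20 (5.64), a processome scaffold, POLR1A (7.60), the largest Pol I subunit, and UTP15 (8.0).

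Serum was followed by higher exon counts of a minority of the members. In the average response over the 3 siRNAs, 7 of the 42 members rose and none fell (16.7%), against 5.85% of all tested genes that rose and 5.11% that fell. The 7 were RRP12, NOP58, PNO1, DDX21, GAR1, DKC1 and TSR1, and their rises ran from 0.27 to 0.65 on the log2 scale. The median over all 42 members was 0.14, against −0.02 over all tested genes, and was 0.02 (against −0.14) when libraries were scaled by their totals alone. In bulk RNA a lower share of cells with an RNA and less of it per cell cannot be told apart. Without siPFDN2 before serum replicate 2, 22 members rose and 3 fell, against 15.3% and 13.1% of all genes. With each library's GC trend removed, 19 rose and 3 fell, against 15.4% and 12.6% of all genes. With replicate 1 of siPFDN2 before serum left out instead, 25 rose and 8 fell, against 26.3% and 24.8% of all genes. Leaving out siControl after serum replicate 1 gave 5, and siControl after serum replicate 2 or labelled siPFDN5 after serum replicate 1 gave 4. Leaving out siControl before serum replicate 1 or siPFDN2 after serum replicate 1 gave 3. The count was 2 without siControl before serum replicate 2, siPFDN2 after serum replicate 2, either siPFDN5 library before serum, or labelled siPFDN5 after serum replicate 2. A group left with 1 library was assumed to vary like the others. Calls here and below are edgeR quasi-likelihood tests at a Benjamini-Hochberg adjusted p under 0.05. Where member counts at an unadjusted p or by DESeq2 are given, the percentages of all genes beside them are of these calls.

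Within a single siRNA fewer members passed. In siControl none of the 42 rose or fell, against 1.73% and 0.394% of all genes. In siPFDN2 again none did, against 1.67% and 0.86% of all genes. At an unadjusted p under 0.05 there were 5 members in siControl and 19 in siPFDN2, and DESeq2 called 2 and 7. No share of all genes at those settings stands beside these counts, so they do not show a response particular to the members. With siPFDN5, the labelled libraries after serum against those before it, NHP2 and PNO1 rose (2 of 42, against 2.72% of all genes that rose and 1.49% that fell). No member passed when any siPFDN5 library, any siPFDN2 library after serum or any siControl library before serum was left out, 1 passed without either siControl library after serum, and without siPFDN2 before serum replicate 1 there were 25 higher and 2 lower, against 18.4% and 13.9% of all genes. None passed under total-count or upper-quartile scaling or with a replicate block. Without siPFDN2 before serum replicate 2 the counts were 8 higher and 4 lower in siControl (against 6.49% and 5.52% of all genes), 3 and 0 in siPFDN2 (against 3.16% and 2.3%), and 24 and 2 with siPFDN5 (against 18.6% and 14.2%). With the GC trend removed, 19 members rose and 1 fell with siPFDN5, against 13.2% and 8.94% of all genes. In siControl 6 rose and 1 fell (against 4.13% and 2.56%), and in siPFDN2 4 rose and 1 fell (against 5.07% and 4.01%).

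Counted without a test, 15 of the 42 members had both siControl libraries after serum above both before it and 7 had both below, against 23.4% and 24.3% of all genes. In siPFDN2 the numbers were 15 above and 8 below, against 26.6% and 26.3%. With siPFDN5 they were 32 above (76.2%) and 6 below, against 35.5% and 36.1%. Over all 6 libraries of each time, DDX21, NOP58, PNO1 and UTP15 were higher in every library after serum than in every library before it (9.52%, against 4.13% of all genes), and no member was lower in all (against 2.74%).

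**Figure D2:**
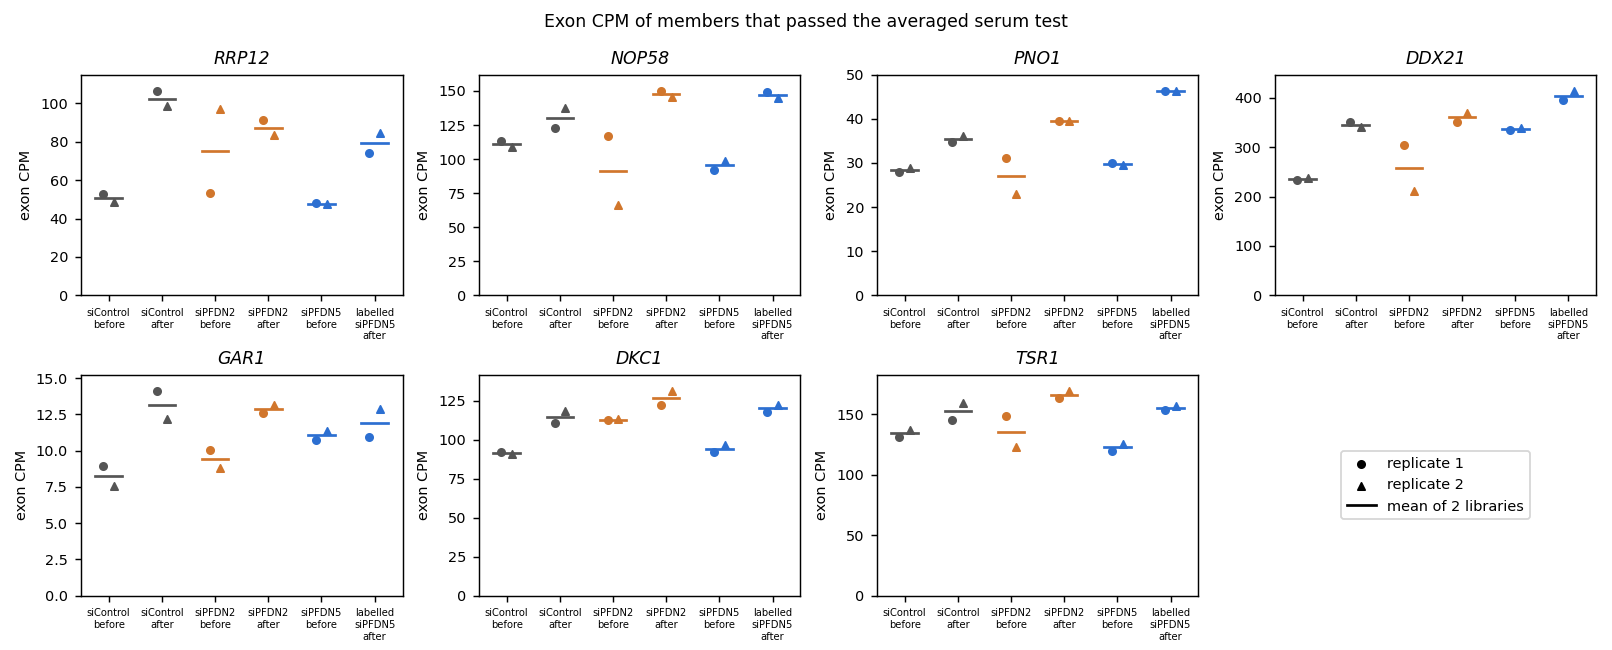
Exon CPM of the 7 members that rose in the averaged serum response, in each of the 12 libraries (circle, replicate 1; triangle, replicate 2) with the mean of the 2 libraries of each group as a line. PNO1, NOP58 and DDX21 are higher in every library after serum than in every library before it, whereas those of RRP12, DKC1, GAR1 and TSR1 overlap between the times.

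Late 40S assembly held 3 of the 7 rises, with a median of 0.27 over its 5 genes. RRP12 (GRCh38 chromosome 10, 97356358 to 97426076), needed for export of pre-ribosomes, stood at 52.8 and 48.4 CPM before and 106 and 98.4 after serum in siControl, at 53.2 and 97.1 before and 91.0 and 83.4 after in siPFDN2, and at 48.0 and 47.4 before and 74.0 and 84.3 after with siPFDN5. Its libraries separated by time in siControl and with siPFDN5, and overlapped in siPFDN2 through replicate 2 before serum. The averaged response was 0.65 ± 0.13 (log2 fold change ± SE, edgeR adjusted p = 0.0114). In siControl alone it was 1.02 ± 0.23 (adjusted p = 0.0532), and 1.01 ± 0.08 (adjusted p = 1.99e-08) without that library.

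PNO1 (chromosome 2, 68157844 to 68176238), a partner of the NOB1 nuclease on the maturing 40S subunit, stood at 28.0 and 28.8 CPM before and 34.7 and 36.0 after serum in siControl, at 31.2 and 22.9 before and 39.6 and 39.4 after in siPFDN2, and at 29.9 and 29.5 before and 46.3 and 46.2 after with siPFDN5. All libraries after serum lay above all before it, with an averaged response of 0.50 ± 0.09 (edgeR adjusted p = 0.00488) and a response with siPFDN5 of 0.64 ± 0.15 (adjusted p = 0.0452). TSR1, a GTPase-like factor of the late 40S particle, stood at 131 and 137 CPM before and 146 and 159 after serum in siControl, at 149 and 123 before and 163 and 169 after in siPFDN2, and at 120.1 and 125 before and 154 and 157 after with siPFDN5. Within each siRNA both of its libraries after serum were above both before it, and its average was 0.27 ± 0.08 (adjusted p = 0.0457). BYSL and NOB1 did not pass, and NOB1 stood lower in both siControl libraries after serum (54.3 and 69.9 CPM) than before it (79.3 and 80.0).

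The snoRNP proteins shared 3 rises, and all 8 had an averaged value above 0. NOP58 (chromosome 2, 202265716 to 202303666), a core box C/D protein, stood at 113 and 109 CPM before and 123 and 138 after serum in siControl, at 117 and 66.1 before and 150.1 and 146 after in siPFDN2, and at 92.3 and 98.9 before and 149 and 145 after with siPFDN5. Every library after serum was above every library before it, with an average of 0.51 ± 0.13 (edgeR adjusted p = 0.0271). NOP56, its partner, stood at 208 and 192 CPM before and 189 and 222 after serum in siControl, at 221 and 227 before and 218 and 223 after in siPFDN2, and at 152 and 156 before and 218 and 216 after with siPFDN5. Its libraries separated by time with siPFDN5 alone (0.50 ± 0.13, adjusted p = 0.0547). GAR1 (chromosome 4, 109815510 to 109824740), of the H/ACA particle, stood at 8.97 and 7.53 CPM before and 14.1 and 12.2 after serum in siControl, at 10.0 and 8.77 before and 12.6 and 13.1 after in siPFDN2, and at 10.7 and 11.4 before and 11 and 12.9 after with siPFDN5. They overlapped with siPFDN5 and separated in siControl and siPFDN2, and the average rise was 0.41 ± 0.09 (adjusted p = 0.0168).

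DKC1 (chromosome X, 154762742 to 154777689), the pseudouridine synthase of the H/ACA particle, stood at 92.2 and 91.0 CPM before and 111 and 118 after serum in siControl, at 112 and 113 before and 122 and 131 after in siPFDN2, and at 91.9 and 96.5 before and 118 and 122 after with siPFDN5. It rose by 0.28 ± 0.07 on average (edgeR adjusted p = 0.0272), and within each siRNA both libraries after serum were above both before it. NHP2, another protein of that particle, stood at 66.8 and 67.2 CPM before and 60.3 and 72.1 after serum in siControl, at 73.3 and 70.5 before and 74.2 and 81.5 after in siPFDN2, and at 60.8 and 58.3 before and 89.8 and 87.4 after with siPFDN5. Its response with siPFDN5 was 0.57 ± 0.13 (adjusted p = 0.0397), while its siControl libraries overlapped between the times. NOP10 stood at 64.2 and 66.1 CPM before and 51.3 and 66.8 after serum in siControl, at 62.1 and 45.4 before and 71.1 and 70.7 after in siPFDN2, and at 64.5 and 64.4 before and 98.3 and 101 after with siPFDN5. Its libraries overlapped in siControl and separated in siPFDN2 and with siPFDN5, where the value of 0.63 ± 0.17 did not pass (adjusted p = 0.0682).

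DDX21 (chromosome 10, 68956128 to 68985073), an RNA helicase of the nucleolus, was the 1 chaperone or regulator that passed on average. It stood at 234 and 237 CPM before and 350.4 and 341 after serum in siControl, at 303 and 211 before and 351 and 369 after in siPFDN2, and at 335 and 338 before and 395 and 414 after with siPFDN5. Every library after serum was above every library before it, with an average of 0.43 ± 0.09 (edgeR adjusted p = 0.0145). LYAR, a nucleolar growth regulator, stood at 35.7 and 39.9 CPM before and 39.5 and 44.6 after serum in siControl, at 45.0 and 21.8 before and 54.8 and 57.7 after in siPFDN2, and at 41.9 and 41.7 before and 59.2 and 55.1 after with siPFDN5. Its siControl libraries overlapped by a small margin, and its average of 0.45 ± 0.15 did not pass (adjusted p = 0.0795). The median over the 7 genes of this set was 0.29.

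No gene of the small subunit processome, the 60S set or the Pol I set passed on average. UTP15, which binds early in the processome, stood at 46.0 and 44.3 CPM before and 52.0 and 53.5 after serum in siControl, at 49.0 and 26.6 before and 56.9 and 56.5 after in siPFDN2, and at 46.3 and 47.8 before and 66.6 and 61.5 after with siPFDN5. Every library after serum was above every library before it, and the average was 0.42 ± 0.13 (edgeR adjusted p = 0.0638). WDR43, of the same early complex, stood at 186 and 189 CPM before and 171 and 197 after serum in siControl, at 201 and 97.2 before and 236 and 226 after in siPFDN2, and at 178 and 179 before and 244 and 223 after with siPFDN5, with an average of 0.33 ± 0.15 (adjusted p = 0.168). The set's median was 0.11.

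In the 60S set, with a median of 0.07, PES1 of the PeBoW complex stood at 110.0 and 105 CPM before and 111 and 119 after serum in siControl, at 121 and 137 before and 131 and 138 after in siPFDN2, and at 98.8 and 100.5 before and 137 and 142 after with siPFDN5. Its average was 0.22 ± 0.07 (edgeR adjusted p = 0.0761), and its libraries separated by time in siControl and with siPFDN5. PPAN stood at 21.6 and 19.8 CPM before and 22.1 and 21.9 after serum in siControl, at 24.2 and 48.8 before and 21.8 and 22.4 after in siPFDN2, and at 22.6 and 23.6 before and 21.5 and 25.4 after with siPFDN5, with an average of −0.21 ± 0.15 (adjusted p = 0.372).

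The Pol I set had the one negative median of the 7 sets, −0.16, and 2 of its 6 genes had a value above 0. POLR1A stood at 102 and 114 CPM before and 117 and 95.4 after serum in siControl, at 111 and 151 before and 94.4 and 94.3 after in siPFDN2, and at 104 and 103 before and 71.6 and 75.9 after with siPFDN5. Both labelled siPFDN5 libraries after serum and both siPFDN2 libraries after serum lay below those before it, those of siControl overlapped, and the average of −0.33 ± 0.10 did not pass (edgeR adjusted p = 0.0541). TCOF1, the Treacle protein, stood at 97.3 and 90.0 CPM before and 98.0 and 91.8 after serum in siControl, at 103 and 198 before and 83.3 and 89.2 after in siPFDN2, and at 90.5 and 96.0 before and 79.7 and 84.1 after with siPFDN5. Its average of −0.32 ± 0.14 did not pass either (adjusted p = 0.149), and replicate 2 of siPFDN2 before serum lay above all its other libraries. Without that library POLR1A, POLR1B and TCOF1 were the 3 members that fell.

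**Figure D3:**
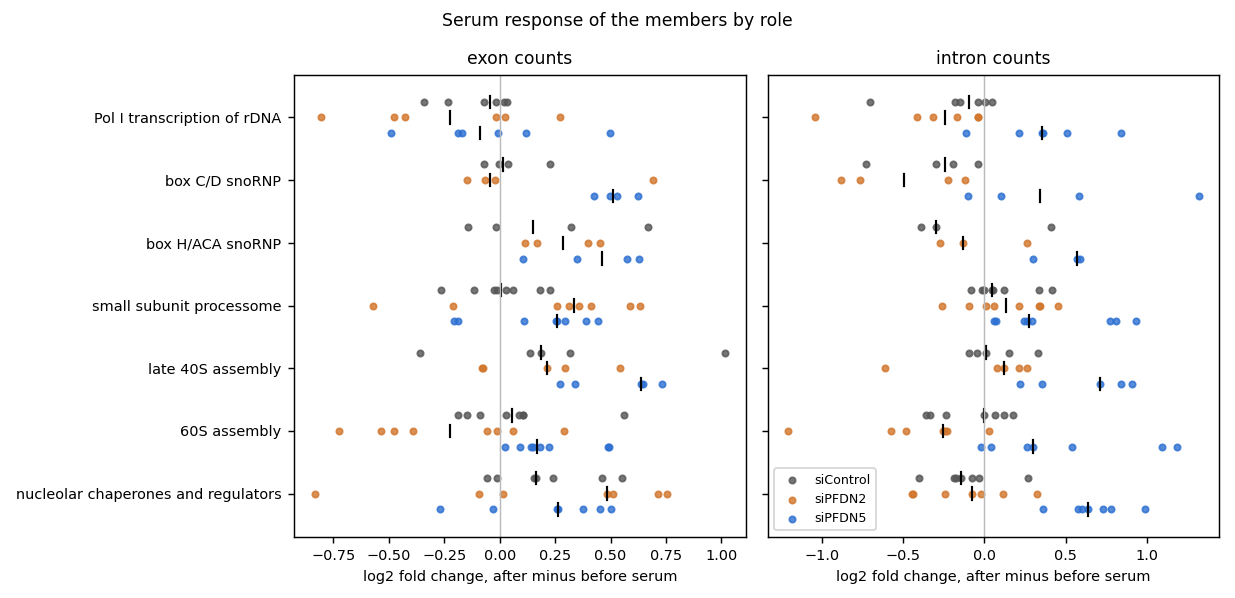
Log2 fold change after serum (horizontal axes) of each member in exon counts (left) and intron counts (right), for siControl (grey), siPFDN2 (orange) and siPFDN5 (blue), by role, with black bars at the medians. In intron counts the blue points lie to the right of 0 for 37 of 40 members. Their median of 0.53 lies above those of siControl (−0.04) and siPFDN2 (−0.12). Over all tested genes the intron medians were −0.03 with siPFDN5, −0.01 in siControl and −0.02 in siPFDN2.

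Against siControl, no exon count of a member passed before serum or after it with edgeR. Of all genes 0% passed for siPFDN2 before serum, siPFDN5 before serum and siPFDN2 after serum. In the labelled siPFDN5 libraries after serum 0.00402% passed, and 8 members had an unadjusted p under 0.05 (DESeq2 called 3). The unadjusted counts of the other comparisons were 12, 4 and 1 members in that order. Without siPFDN2 before serum replicate 2, 18 members were higher and 4 lower in the libraries labelled siPFDN5 after serum (against 14.9% and 11.6% of all genes), with NOP10 at 0.76 ± 0.09 (adjusted p = 3.74e-05) and POLR1A at −0.52 ± 0.09 (adjusted p = 0.000333) at the ends. With the GC trend removed the counts were 9 and 2, against 7.85% and 5.47% of all genes. Without that library 6 members were higher in siPFDN2 after serum (3.46% of all genes were higher and 2.64% lower), led by LYAR (0.42 ± 0.08), whereas with the GC trend removed no member passed there (0% of all genes were higher and 0.0241% lower). Without the library, in siPFDN5 before serum DDX21, GAR1 and RRS1 were higher and NOB1, NOP2 and NOP56 lower (against 4.31% and 6.47% of all genes). With the GC trend removed DDX21 alone passed there, as higher (against 0.856% and 0.755% of all genes), and RRS1 alone was higher in siPFDN2 before serum (against 0.121% and 0.277%).

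The serum response of no member differed between a knockdown and siControl in exon counts, where 0% of all genes passed for siPFDN2 or siPFDN5 (8 and 9 members at an unadjusted p under 0.05). Without siPFDN2 before serum replicate 2, the response differed for 23 members with siPFDN5, 19 of them larger and 4 smaller than in siControl (against 11.1% and 7.55% of all genes). With the GC trend removed no member differed, and 0.0321% of all genes had a larger and 0.0281% a smaller response. Without the library, NOP10 differed by 0.78 ± 0.13 (adjusted p = 0.00208) and GAR1 by −0.55 ± 0.15 (adjusted p = 0.0203). All comparisons against siControl shared its libraries.

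With siPFDN5, intron counts of 15 members rose after serum. They were 37.5% of the 40 members with enough intron counts (NOP10 and RRS1 had too few, and RRS1 has no intron), and none fell, against 13.3% of all tested genes that rose and 14.5% that fell. The risers were NOP56, PPAN, NOP16, NCL, NOL6, RRP12, BYSL, POLR1C, NOP14, NOLC1, UTP15, DDX21, TSR1, GNL3 and LYAR, with responses from 0.58 to 1.32. In 31 members both libraries labelled siPFDN5 after serum were above both before it, and in 2 both were below, against 37.1% and 39.5% of all genes. In siControl no member passed (0 of 40, against 6.25% of all genes that rose and 2.38% that fell; 2 at an unadjusted p under 0.05). Without siPFDN2 before serum replicate 2 the siPFDN5 count was 18 higher and none lower, against 18% and 18% of all genes.

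This count rested on having both libraries of a group. Leaving out siPFDN5 before serum replicate 1 or labelled siPFDN5 after serum replicate 1 gave 0 calls, leaving out labelled siPFDN5 after serum replicate 2 gave 1, and leaving out siPFDN5 before serum replicate 2 gave 2, with the lone library assumed to vary like the other groups. Leaving out a library of another group gave between 12 and 18. With total-count scaling, which also moved the median of all genes to −0.26, 1 member rose with siPFDN5 (against 5.31% of all genes that rose and 17.4% that fell) and the member median was 0.28. Under that scaling 22 members fell and none rose in siPFDN2 (against 36.8% and 1.98% of all genes), with medians of −0.83 over the members and −0.72 over all genes. Intron counts made up 22.8% and 25.9% of the gene-body total in the siPFDN5 libraries before serum, and 20.9% or less in the others; the part of this in the result was not tested.

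NOP56 gave the largest intron response. In intron CPM it stood at 5.71 and 4.10 CPM before and 2.23 and 3.62 after serum in siControl, at 6.52 and 5.70 before and 6.14 and 4.36 after in siPFDN2, and at 2.17 and 2.66 before and 6.52 and 5.59 after with siPFDN5. The libraries of siPFDN5 and of siControl separated by time in opposite directions, with 1.32 ± 0.32 (edgeR adjusted p = 0.00829) against −0.73 ± 0.30 (adjusted p = 0.15). NCL, the nucleolin gene, stood at 29.3 and 28.0 CPM before and 21.5 and 32.7 after serum in siControl, at 43.1 and 24.5 before and 42.2 and 31.2 after in siPFDN2, and at 19.7 and 22.0 before and 43.8 and 39.1 after with siPFDN5. Its libraries separated with siPFDN5 and overlapped in siControl and siPFDN2. DDX21 stood at 35.7 and 36.5 CPM before and 31.0 and 34.3 after serum in siControl, at 48.6 and 37.8 before and 41.7 and 40.1 after in siPFDN2, and at 25.4 and 25.1 before and 42.8 and 41.0 after with siPFDN5. In siControl its intron level was lower in both libraries after serum, where its exon level was higher in both.

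**Figure D4:**
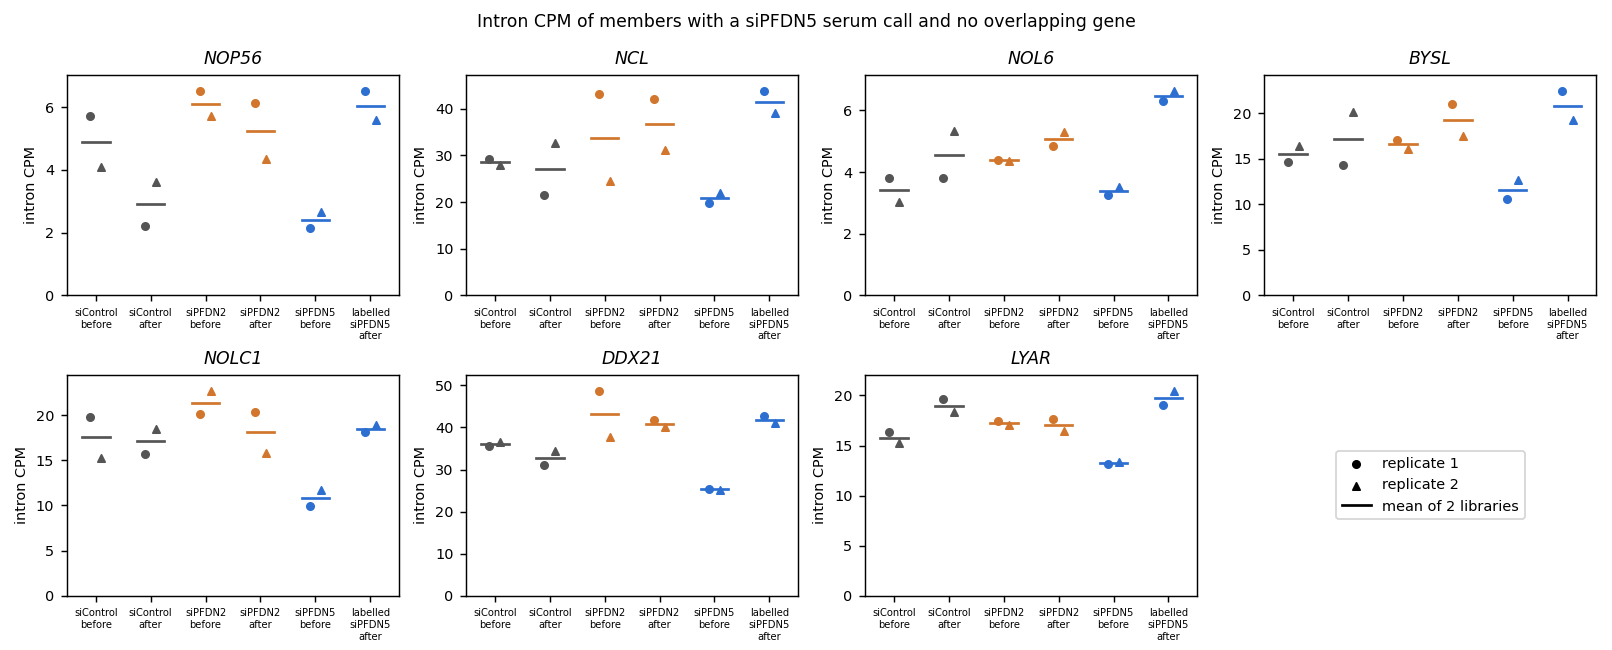
Intron CPM of the 7 members that rose with siPFDN5 and overlap no other gene (small RNA genes aside), in each of the 12 libraries (circle, replicate 1, and triangle, replicate 2) with the mean of each group as a line. In all 7 both siPFDN5 libraries before serum lie below both libraries labelled siPFDN5 after it; the siControl libraries overlap between the times for 4 and separate for NOP56, DDX21 and LYAR.

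Introns can hold reads of other genes, since the counts were made without strand. Small RNA genes aside, 20 members overlap another gene and 22 do not. Counted separately, 9 members host 19 small RNA genes between their exons (GNL3 and NCL, for example, host snoRNAs). Among the 21 tested members that overlap no other gene, small RNA genes aside, 7 rose with siPFDN5 (33.3%), against 8.74% of the 5194 such genes. They were NOP56, NCL, NOL6, BYSL, NOLC1, DDX21 and LYAR. Subtracting the small RNA genes left the count of 15. The POLR1C intron counts (267 to 583 intron CPM, and 64.1% to 74.1% of its gene-body counts) lie where XPO5 and YIPF3 overlap it and are uncertain. So are those of PPAN, which overlaps P2RY11 and the PPAN-P2RY11 readthrough.

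In siPFDN2 3 members fell in intron counts and none rose (against 6.38% and 5.45% of all genes): BOP1, of the PeBoW complex (−1.21 ± 0.37), UBTF, the Pol I factor UBF (−1.04 ± 0.32), and RRP9, a U3 snoRNP protein (−0.88 ± 0.28). BOP1 stood at 23.4 and 17.4 CPM before and 19.1 and 23.5 after serum in siControl, at 20.4 and 64.6 before and 21.8 and 15.1 after in siPFDN2, and at 11.8 and 13.6 before and 13.9 and 16.6 after with siPFDN5. In siPFDN2 its libraries overlapped between replicate 1 before serum and replicate 1 after it. UBTF stood at 12 and 12.4 CPM before and 5.15 and 9.79 after serum in siControl, at 11.6 and 21.9 before and 8.99 and 7.36 after in siPFDN2, and at 6.14 and 8.04 before and 8.02 and 8.38 after with siPFDN5, and RRP9 stood at 8.22 and 6.19 CPM before and 5.10 and 7.45 after serum in siControl, at 10.0 and 11.7 before and 6.88 and 4.98 after in siPFDN2, and at 5.78 and 4.02 before and 6.95 and 7.68 after with siPFDN5. Both separated by time in siPFDN2. No member passed with the GC trend removed, or without siPFDN2 before serum replicate 2 or any library of siPFDN2 after serum, siControl before serum or siPFDN5; 3 rose and 7 fell without siPFDN2 before serum replicate 1, against 14.9% and 15.9% of all genes.

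On average over the siRNAs, intron counts of UTP15 (0.52), NOL6, a processome scaffold (0.52), RRP12 (0.44) and BYSL, of late 40S assembly (0.40), rose. Those of UBTF (−0.51) fell. These 4 and 1 of the 40 members were smaller shares than the 14.2% and 15.1% of all genes. With the GC trend removed 6 members rose and UBTF fell (15% and 2.5%, against 17.4% and 16.7% of all genes). Without siPFDN2 before serum replicate 2, which held the highest UBTF intron level, the UBTF value was −0.34. UTP15 stood at 6.85 and 6.69 CPM before and 8.77 and 8.30 after serum in siControl, at 8.75 and 5.40 before and 9.81 and 9.47 after in siPFDN2, and at 6.71 and 5.89 before and 10.8 and 10.7 after with siPFDN5. NOL6 stood at 3.82 and 3.05 CPM before and 3.81 and 5.32 after serum in siControl, at 4.40 and 4.38 before and 4.86 and 5.32 after in siPFDN2, and at 3.25 and 3.52 before and 6.31 and 6.63 after with siPFDN5. RRP12 stood at 46.4 and 41.8 CPM before and 52.9 and 58.2 after serum in siControl, at 46.8 and 57.9 before and 57.3 and 53.2 after in siPFDN2, and at 33.1 and 33.8 before and 63.7 and 62.2 after with siPFDN5. Each separated by time with siPFDN5, UTP15 also in siControl and siPFDN2, RRP12 also in siControl and NOL6 also in siPFDN2. BYSL stood at 14.6 and 16.4 CPM before and 14.3 and 20.1 after serum in siControl. In siPFDN2 it stood at 17.1 and 16.1 before and 21.0 and 17.4 after. With siPFDN5 it stood at 10.6 and 12.6 before and 22.4 and 19.2 after. Its libraries separated by time in siPFDN2 and with siPFDN5. With total-count scaling no member rose and 8 of 40 fell, against 5.09% of all genes that rose and 35.1% that fell, and the median was −0.26 over the members and −0.36 over all genes.

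Against siControl before serum, the intron counts of 38 of 40 members stood lower in siPFDN5 (median −0.37, against 0.00 over all genes). None passed, against 0.304% of all genes that passed higher and 0.0355% lower. At an unadjusted p under 0.05 there were 11 members, for which no share of all genes is given. After serum 32 of 40 stood higher (median 0.20) and none passed (2.11% and 1.69% of all genes). With the GC trend removed the medians after serum were 0.18 over the members and −0.06 over all genes. The intron serum response differed between siPFDN5 and siControl for 1 member, NOP56 (2.05 ± 0.44, adjusted p = 0.0318), against 3.59% of all genes with a larger and 8.95% with a smaller response. No member passed without either siControl library before serum, siControl after serum replicate 1, either siPFDN2 library after serum, siPFDN5 before serum replicate 1 or either labelled siPFDN5 library after serum. Leaving out siControl after serum replicate 2 gave 15 members, all larger (against 12.8% larger and 19.1% smaller of all genes). Leaving out siPFDN2 before serum replicate 1 gave 11, all larger (against 9.57% and 13.6%). This comparison and the intron comparisons with siControl were chosen after seeing the data. Without siPFDN2 before serum replicate 2 there were 11, all larger (10.2% of all genes were larger and 14.3% smaller).

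**Figure D5:**
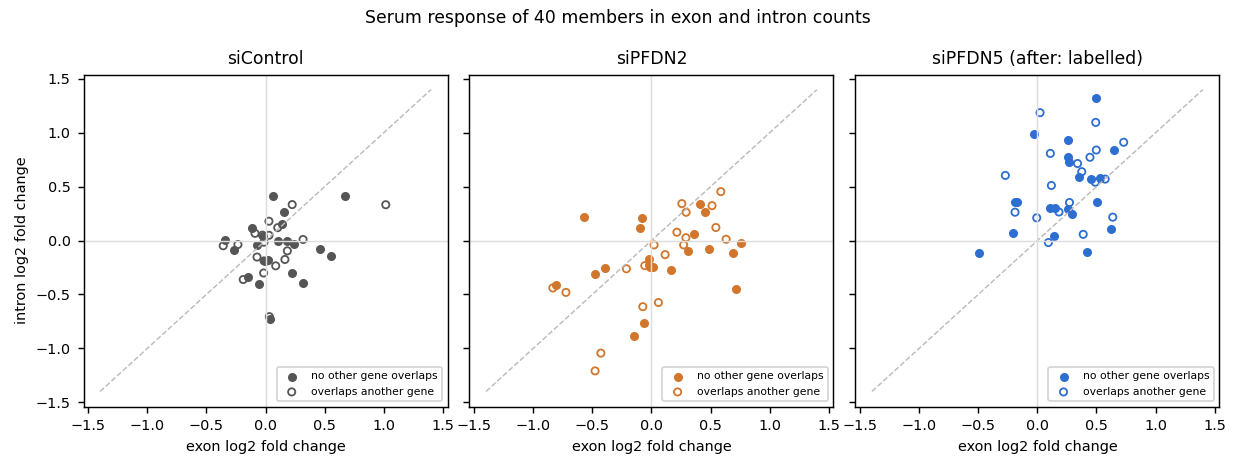
Log2 fold change after serum in exon counts (horizontal axes) and intron counts (vertical axes) of 40 members for siControl, siPFDN2 and siPFDN5. Filled points overlap no other gene (small RNA genes aside) and the dashed line marks equal values. With siPFDN5 31 of 40 points lie above the line, against 16 in siControl and 9 in siPFDN2. The median intron minus exon response over the members was 0.23 with siPFDN5, −0.17 in siControl and −0.22 in siPFDN2. Over all tested genes it was −0.01, −0.03 and −0.02 in that order.

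The intron and exon responses were then set against each other in 1 model with the library as a block. Across the 40 members, which share libraries and so give no test, Pearson's r between the exon and intron log2 fold changes was 0.29 in siControl, 0.52 in siPFDN2, 0.30 with siPFDN5 and 0.40 on average. In siControl the intron response was below the exon response for 1 member, DDX21 (intron minus exon −0.70 ± 0.19, adjusted p = 0.0474), and above it for none, against 1.81% and 2.78% of all genes. In siPFDN2 it was below for NPM1 (−1.29 ± 0.26) and NOP58 (−0.86 ± 0.21) and above for none, against 2.51% and 2.3%. In intron CPM NPM1 stood at 104 and 98.6 CPM before and 72.4 and 80.7 after serum in siControl, at 130.5 and 107 before and 95.7 and 78.8 after in siPFDN2, and at 62.4 and 65.7 before and 86.3 and 78.3 after with siPFDN5. NOP58 stood at 82.5 and 75.1 CPM before and 63.0 and 65.2 after serum in siControl, at 89.9 and 74.1 before and 80.6 and 70.5 after in siPFDN2, and at 64.8 and 58.6 before and 71.0 and 61.8 after with siPFDN5. Both siPFDN2 calls were absent without replicate 2 before serum or either replicate after it, and the DDX21 comparison gave no call without any library of siPFDN5, of siControl before serum or of siPFDN2 after serum, or without siControl after serum replicate 1.

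With siPFDN5 the intron response was above the exon response for PPAN (1.17 ± 0.34), MYBBP1A, a repressor that binds Pol I (0.88 ± 0.25), NOP56 (0.83 ± 0.29) and NOP14, a processome protein (0.70 ± 0.20), and below for none (4 of 40, against 10.1% above and 11.2% below of all genes). In this fit with all 12 libraries the members' share above the exon response was close to that of all genes. Without siPFDN2 before serum replicate 2 more members passed, in both directions, and no share of all genes is given for that fit. In intron CPM MYBBP1A stood at 22.8 and 17.5 CPM before and 15.4 and 20.3 after serum in siControl, at 22.8 and 34.5 before and 23.3 and 19.1 after in siPFDN2, and at 12.1 and 12.1 before and 18.2 and 18.6 after with siPFDN5. Its exon CPM with siPFDN5 stood at 69.7 and 71.2 before and 54.2 and 62.5 after, so that introns and exons separated in opposite directions. NOP14 stood at 37.6 and 32.9 CPM before and 31.6 and 41.3 after serum in siControl, at 39.0 and 47.8 before and 37.7 and 34.8 after in siPFDN2, and at 26.4 and 28.1 before and 47.4 and 48.2 after with siPFDN5. PPAN stood at 6.50 and 4.54 CPM before and 3.32 and 6.0 after serum in siControl, at 6.06 and 8.62 before and 5.68 and 4.91 after in siPFDN2, and at 2.67 and 3.37 before and 7.80 and 6.02 after with siPFDN5. For both, each labelled siPFDN5 library after serum lay above each siPFDN5 library before serum. Leaving out any library of siPFDN5 ended all 4 calls. On average NOL6 (0.59) was above and NOP58 (−0.63), NPM1 (−0.59) and PNO1 (−0.39, at intron CPM of 8.15 to 11.5) were below, against 9.36% and 12.3% of all genes.

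Members with an E-box in a promoter window were set beside the rest as a description. Their median averaged exon response was 0.23 (16 members, 3 called), against 0.12 for the other 26 members (4 called), which include those without a window. In intron counts with siPFDN5 the medians were 0.58 (6 of 15 called) and 0.36 (9 of 25 called).

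A wider list of 104 further ribosome assembly genes was read with the members. In the averaged exon response 14 of the 104 rose (5.85% of all genes did) and none fell, with a median of 0.15, against 7 of 42 and 0.14 for the members. Those with the largest changes were POLR1E, a Pol I subunit (0.88), SBDS, which helps release a factor from the 60S subunit (0.73), LTV1, a 40S assembly factor (0.52), and the 60S factors GTPBP4 (0.46) and BRIX1 (0.46). With siPFDN5 10 rose (2.72% of all genes did) and none fell. In siControl and in siPFDN2 2 rose and none fell, near the 1.73% and 1.67% of all genes that rose.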

How the data were processed

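The authors deposited fragment counts per gene over gene bodies and over exons. Per the file headers, both tables came from featureCounts 1.5.2 on Ensembl annotation of GRCh38, with both ends required to map, fragments assigned to all genes they overlapped, and strand ignored. Per the submitters' processing notes, HISAT2 and kallisto were also used. The per-sample transcript tables were not used here, and 6 count columns that match no sample were left out. Gene names, overlaps and GC content came from GENCODE 29, which named 57447 of 58051 genes. Exon totals ran from 46158398 to 114454288. Intron counts of single members could be low, so that counting error adds to their spread. NOP56, for example, held 30 and 37 intron fragments in siPFDN5 before serum, and PPAN 37 and 47.

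Intron counts were gene-body minus exon counts. Each kind was filtered by filterByExpr, scaled by TMM and fitted with the 6 group means in edgeR 4.0.16 (R 4.3.3; quasi-likelihood F test, robust, two-sided). P-values were adjusted over all 24889 (exon), 19731 (intron) or 17390 (intron minus exon) genes tested. The script was tested on simulated data. DESeq2 1.42.0, other scalings, no filter, GC trend removal (lowess), gene-body counts, small RNA subtraction, a replicate block and leaving out each library were alternatives. Members, lists and rules were chosen with earlier results of these data known. Any member could be named; values in every library were given for the 2 members per role with the largest averaged exon change and for members of comparisons with 5 or fewer calls, and up to 5 called genes of the wider list were named. Intron differences between siRNAs, the intron comparisons with siControl and the restriction to members without overlap were added after seeing the data.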

Additional observations from a re-analysis of the deposited data

Results flagged for a closer look

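The intron serum response of NOP56 differed between siPFDN5 and siControl by a test of the difference itself, by 2.05 on the log2 scale (SE 0.44, edgeR adjusted p = 0.0318). The response was 1.32 with siPFDN5 and −0.73 in siControl. Its introns are short in total (851 bases outside exons) and held 2.17 to 6.52 CPM, from 30 to 133 fragments per library. After serum, PFDN5 in the labelled siPFDN5 libraries stood below both siControl libraries by less than before serum (78.0 and 79.6 exon CPM, against 87.3 and 90.1), and the part of this in the difference was not tested.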

How the results depend on the processing

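Counts of members that passed edgeR's test depended on the setting, and the shares of all genes moved too. In the averaged exon response 5.85% of all genes rose and 5.11% fell in the main fit. With the GC trend removed these shares were 15.4% and 12.6%. The counts below mostly lack that share, so they show dependence on the setting and not a change particular to the members. With upper-quartile scaling the exon serum response with siPFDN5 gave 0 and the intron minus exon response with siPFDN5 11. With total-count scaling the exon response with siPFDN5 gave 0, the intron response 22 in siPFDN2, 1 with siPFDN5 and 8 on average (0 higher and 8 lower, against 4 and 1 with TMM), and intron minus exon 0 in siControl, 21 in siPFDN2, 1 with siPFDN5 and 10 on average. Without a filter the exon response gave 1 in siControl, 12 in siPFDN2, 10 with siPFDN5 and 13 on average. It also gave 7 for siPFDN2 against siControl before serum, 1 for siPFDN5 after serum and 4 for the siPFDN2 serum difference, and intron minus exon in siControl gave 0. With the GC trend removed the exon response gave 7, 5, 20 and 22 in that order, and exon counts against siControl gave 1 for siPFDN2 and 1 for siPFDN5 before serum and 11 for siPFDN5 after it. The intron response in siPFDN2 then gave 0 and intron minus exon with siPFDN5 7. DESeq2 gave 2, 7, 11 and 13 for the exon response, 1 for siPFDN2 before serum and 3 for siPFDN5 after serum. Gene-body counts gave 1 in siControl and 10 with siPFDN5.

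Leaving out each library in turn gave, for exon serum responses, 0 to 12 in siControl, 0 to 31 in siPFDN2, 0 to 27 with siPFDN5 and 2 to 33 on average. Exon counts against siControl gave 0 to 35 for siPFDN2 and 0 to 6 for siPFDN5 before serum, and 0 to 6 and 0 to 22 after it, and the serum differences 0 to 29 and 0 to 23. Intron responses gave 0 to 2, 0 to 10, 0 to 18 and 1 to 13, and intron minus exon 0 to 4, 0 to 10, 0 to 9 and 2 to 10, in the order siControl, siPFDN2, siPFDN5, average. The highest exon counts came without a siPFDN2 library before serum. In the averaged exon response the share of all genes that passed was higher there as well. Of the comparisons chosen after seeing the data, the siPFDN5 intron serum difference gave 0 to 15 (main count 1), and 7 with DESeq2.

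With the replicate number as a block, the exon response with siPFDN5 gave 0 and the intron response in siPFDN2 1; no other exon or intron count of members moved by over 1.5 times. The block was not run for intron minus exon, whose model holds each library as a term. Same-numbered libraries correlated between −0.325 and 0.631 over 15 pairs of groups, so the numbers were not taken to pair samples. With 2 libraries per group the spread between libraries limits what could pass: its SD over genes was 0.716 in siPFDN2 before serum and 0.106 to 0.183 in the other groups.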
